A study of Mus musculus with 6 samples.

Results

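Hair follicle stem cells that had just been activated were compared with the 2 states on either side of them, the resting stem cell and its dividing matrix progeny, to find transcripts whose level was highest or lowest in the activated state. The study profiled 3 sorted populations from the back skin of untreated female CD-1 mice, an outbred strain, on Affymetrix whole-genome expression arrays with 2 µg of total RNA per array, and each population had 2 of the 6 arrays. Quiescent stem cells (qHF-SC) were sorted at 52 to 60 days of age by integrin α6 and CD34. Activated stem cells (aHF-SC) were sorted at 28 to 30 days by GFP, integrin α6 and CD34. Transit-amplifying matrix cells (HF-TAC) were sorted at 28 to 30 days by GFP, integrin α6 and ephrinB1. The allele or transgene behind the GFP, the side of each gate and the animals behind each array are not named in the labels. The aHF-SC arrays shared age and GFP with HF-TAC and CD34 with qHF-SC, and each state cannot be told apart from its own gate and age. Whether the 2 arrays of a group came from separate mice was not stated either, so the tests weigh differences only against the spread within these pairs of arrays, and that spread may be technical.

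A gene took the position of a peak when both aHF-SC arrays lay above all 4 other arrays, and of a dip when both lay below. Of 18193 genes measured, 1618 (8.89%) held the position of a peak and 1335 (7.34%) that of a dip. A called peak or dip also had to pass limma's moderated test of the aHF-SC mean against the average of the other group means, on log2 values, at an adjusted p under 0.05. That left 451 called peaks (2.48% of genes) and 251 called dips (1.38%), and the verbs rose and fell are used for these.

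Hair follicles cycle between rest (telogen) and growth (anagen). At rest, stem cells sit in the bulge, attached to a basement membrane and held quiet by BMP signals, while a small hair germ lies next to the dermal papilla. At the start of growth Wnt signals rise and BMP signals fall, stem cells divide briefly, and their progeny move down to form the matrix, a pool of fast-dividing cells that makes the hair shaft and its sheaths. Bulge cells that divide in early anagen give rise to the outer root sheath and a new bulge, and then return to rest.

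The targets of the sort followed the labels in part. Cd34, the bulge surface marker used for sorting, read 7186 and 8557 in qHF-SC, 2385 and 3250 in aHF-SC and 15.3 and 25.7 in HF-TAC, so its level in aHF-SC lay between those of the others. Here and below the pair of values belongs to replicates 1 and 2 of a group, in intensity units. Efnb1, which encodes ephrinB1, read 727 and 795 in aHF-SC and 845 and 1010 in HF-TAC, a difference that did not pass (adjusted p = 0.448 by limma). The bulge markers Krt15, Lgr5, Sox9 and Lhx2 were all lower in HF-TAC than in aHF-SC (adjusted p from 0.000592 to 0.00534). Mki67, a marker of dividing cells, read 52 and 17.5 in qHF-SC, 378 and 105 in aHF-SC and 1154 and 1274 in HF-TAC, and its aHF-SC values were 3.58-fold apart. Genes of 15 transcription factors of lineages outside skin marked the level of an unexpressed gene, an intensity of 20.4 in the highest array median, and a group mean at or below it is called dim. Each population was measured in bulk, so fewer cells of a type and less RNA per cell cannot be told apart.

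Most peaks had the resting stem cell as their nearer neighbour. In 328 of the 451 called peaks qHF-SC was the nearer of the other groups, and in 123 it was HF-TAC. Among the 251 called dips these numbers were 181 and 70. HF-TAC itself was below qHF-SC by limma in 180 called peaks and above it in 39, whereas in the called dips it was above qHF-SC in 110 and below in 29. The same counts were not taken over all genes, so these describe the called genes only. A contrast against an average can also be passed through a single distant group. The step, the fold between the aHF-SC mean and the nearer of the other group means, had a median of 1.77-fold in called peaks and 1.59-fold in called dips. It reached 2-fold in 173 peaks and 77 dips, and 4-fold in 34 peaks and 6 dips. By a stricter reading, in which aHF-SC differed from qHF-SC and from HF-TAC in separate limma tests that share the aHF-SC arrays, 171 genes (0.94%) were peaks and 64 (0.352%) were dips, every one of them also called by the contrast. The remaining called genes passed against the average of both groups but not in both separate tests. By position alone, with no test, genes whose aHF-SC arrays lay between the outer states were about as many, since 1525 genes (8.38%) had their arrays in the order qHF-SC, aHF-SC, HF-TAC from low to high and 1399 (7.69%) from high to low.

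**Figure D1:**
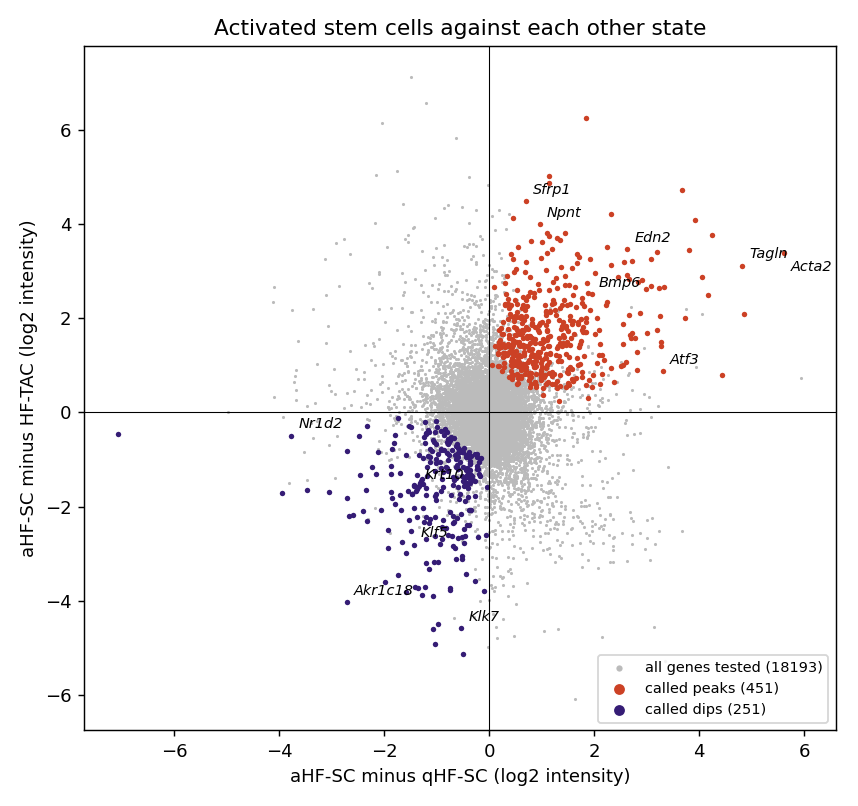
Each point is 1 of 18193 genes, placed by the log2 difference of aHF-SC to qHF-SC (horizontal) and to HF-TAC (vertical). The 451 called peaks lie to the upper right and the 251 called dips to the lower left, and the axes share the aHF-SC arrays.

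Several of the steepest peaks had uneven replicates. In qHF-SC, replicate 1 read above replicate 2 in 373 of the 451 called peaks, against 9060 of all 18193 genes (49.8%). The qHF-SC pair was over 2-fold apart in 54 called peaks, against 202 of all genes (1.11%). In the called dips the uneven pair was HF-TAC, over 2-fold apart in 47 of 251 genes, against 454 of all genes (2.5%). The aHF-SC arrays themselves were over 2-fold apart in 20 called peaks and 4 called dips, against 215 of all genes (1.18%). Without qHF-SC replicate 2 the called peaks numbered 277 and the called dips 109, without aHF-SC replicate 1 they numbered 270 and 89, and without aHF-SC replicate 2 they numbered 111 and 44, which leaves a single array to stand for the activated state. Without qHF-SC replicate 1 the dips numbered 159. By the stricter reading the peaks numbered 30, 52 and 56 without qHF-SC replicate 2, aHF-SC replicate 1 and aHF-SC replicate 2, and the dips 33, 5, 23, 19 and 122 when qHF-SC replicate 1, qHF-SC replicate 2, aHF-SC replicate 1, aHF-SC replicate 2 or HF-TAC replicate 2 was left out.

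The largest step among the peaks was that of Fndc1. Fndc1, a secreted protein with fibronectin type III domains, read 168 and 35.8 in qHF-SC, 1705 and 797 in aHF-SC and 62.2 and 74.1 in HF-TAC, a step of 15-fold and a contrast of 4.0 ± 0.58 (log2, ± SE, n = 2 arrays per group, adjusted p = 0.0124). Its qHF-SC values were 4.7-fold apart, and the lowest aHF-SC value was still above the highest of them. Bgn, the matrix proteoglycan biglycan, read 881 and 252 in qHF-SC, 4565 and 4029 in aHF-SC and 347 and 461 in HF-TAC (step 9.1-fold, adjusted p = 0.00985). Adamts20, a secreted metalloproteinase, and Aoc3, an amine oxidase of the cell surface, had steps of 13.7- and 12.8-fold (adjusted p = 0.0447 and 0.0373), with qHF-SC replicates of 52.8 and 4.39 and of 109.9 and 8.29. Those qHF-SC pairs were the widest of the group, and replicate 2 was dim in both genes. Neither gene passed against qHF-SC alone (adjusted p = 0.0548 and 0.0818 by limma). Lrrc75b, Anxa3 (a membrane-binding annexin), Ret (the receptor of GDNF family ligands) and Plagl1 (an imprinted zinc finger factor) had the same uneven qHF-SC pair and steps of 10.9-, 7.39-, 7.03- and 6.6-fold. Ret did not pass against qHF-SC alone (adjusted p = 0.0548 by limma). Plagl1 rests on a probe set marked as cross-hybridising. Without probe sets ending in x_at, s_at or a_at the contrast of Plagl1 was 0.09 (adjusted p = 0.846). That value came from a probe set that read at most 29.6, near the background.

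Other steep peaks were even in the outer states. B3galnt1, a glycosyltransferase that makes globoside, was dim in both other groups (8.6 and 9.26 in qHF-SC and 7.73 and 8.11 in HF-TAC) and read 101 and 56.6 in aHF-SC (contrast 3.17 ± 0.23, adjusted p = 0.00214). Slc15a2, a proton-coupled peptide transporter, read 24.2 and 18.8 in qHF-SC, 254 and 90.4 in aHF-SC and 20.3 and 24.4 in HF-TAC, and its spread lay within aHF-SC. B3galnt1 and Slc15a2 passed with any array left out. Of the others, calls ended for Fndc1, Adamts20, Aoc3, Lrrc75b, Bgn, Anxa3, Ret and Plagl1 without aHF-SC replicate 1 (adjusted p from 0.0585 to 0.199), for Fndc1, Adamts20, Aoc3, Lrrc75b, Bgn, Anxa3, Ret and Plagl1 without aHF-SC replicate 2 (adjusted p from 0.0583 to 0.223), for Adamts20, Aoc3, Lrrc75b, Anxa3 and Ret without HF-TAC replicate 1 (adjusted p from 0.0548 to 0.0784) and for Adamts20 and Aoc3 without HF-TAC replicate 2 (adjusted p from 0.0586 to 0.0619).

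**Figure D2:**
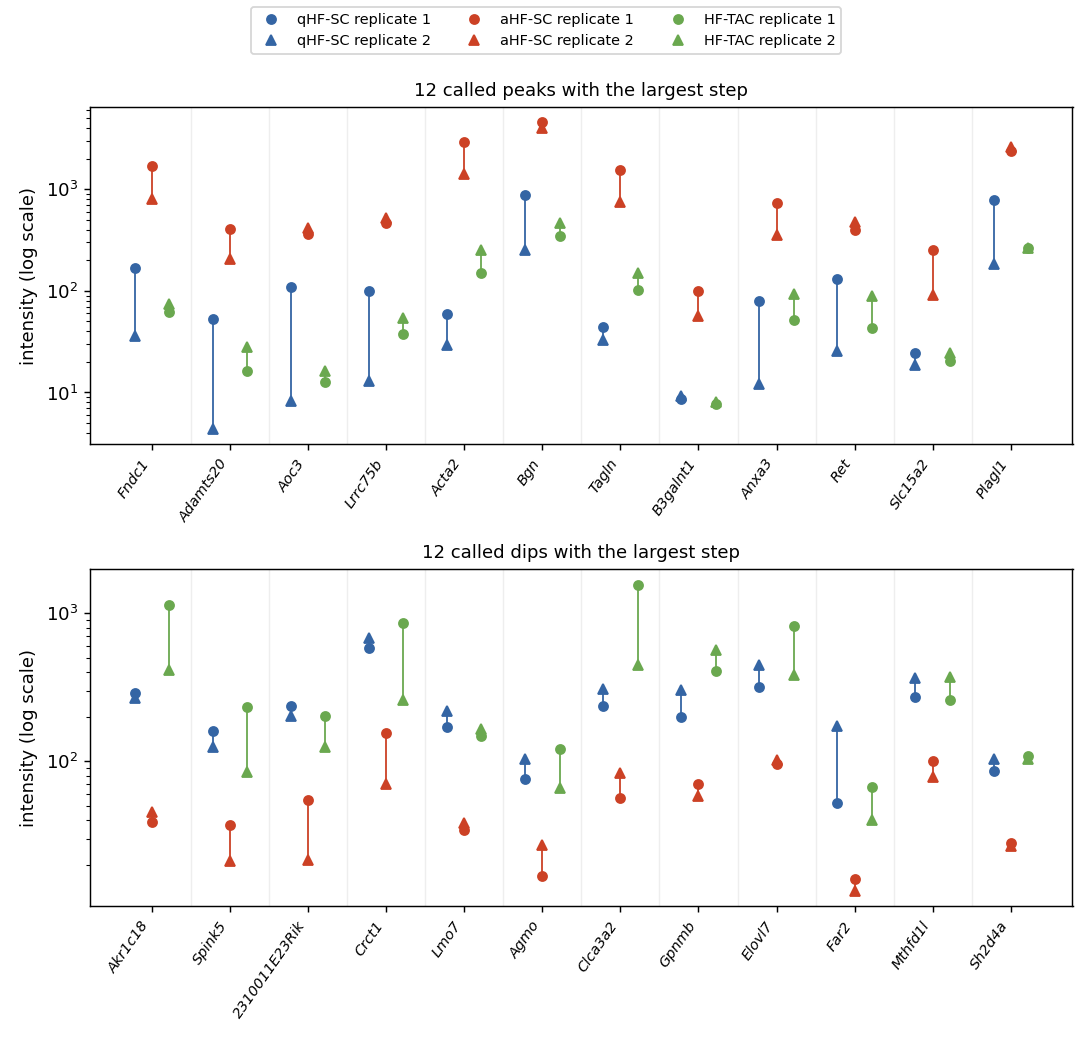
Intensity on a log axis in each of the 6 arrays for the 12 called peaks (top) and the 12 called dips (bottom) with the largest step, with circles for replicate 1, triangles for replicate 2 and a line joining them. In every gene both aHF-SC arrays lie outside the other 4, while qHF-SC pairs in the top panel and HF-TAC pairs in the bottom panel are often wide.

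Several genes of the actin cytoskeleton and of smooth muscle type contraction rose in aHF-SC. Of 23 such genes and Yap targets tested, 6 were called peaks (26.1%, against 2.48% of all genes) and none a called dip, and the list's median contrast was 0.67 against -0.0027 for all genes. Tagln, the actin-binding protein transgelin, read 43.9 and 33 in qHF-SC, 1539 and 746 in aHF-SC and 102 and 148 in HF-TAC (contrast 3.97 ± 0.31, adjusted p = 0.00245). All groups stood apart, with aHF-SC 8.71-fold above HF-TAC and HF-TAC above qHF-SC (adjusted p = 0.0116). Acta2, smooth muscle actin, followed the same order, with 59 and 29.4 in qHF-SC, 2892 and 1428 in aHF-SC and 149 and 252 in HF-TAC (step 10.5-fold, adjusted p = 0.0034). Its probe set is marked as one that can bind related transcripts, and the gene's other probe sets stayed dim. Without probe sets ending in x_at, s_at or a_at the contrast of Acta2 was thus -0.15 (adjusted p = 0.68). Myl9, a regulatory light chain of myosin, was instead higher in qHF-SC than in HF-TAC, with 217 and 309.6 in qHF-SC, 1004 and 645 in aHF-SC and 101 and 159 in HF-TAC (contrast 2.15 ± 0.27, adjusted p = 0.00789).

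The other called peaks of the list were Flna, Tpm2 and Vcl. Flna, the actin cross-linker filamin A, read 751 and 716 in qHF-SC, 1194 and 1372 in aHF-SC and 522 and 603 in HF-TAC. Tpm2, a tropomyosin that coats actin filaments, read 1504 and 1115 in qHF-SC, 3377 and 2942 in aHF-SC and 2144 and 1846 in HF-TAC. Vcl, the adhesion-site protein vinculin, had a step of 1.48-fold and an adjusted p of 0.0475, the closest to the threshold. None of 9 muscle markers was called, against 2.48% and 1.38% of all genes. Their summed intensity was 183 and 211 in qHF-SC, 213 and 214 in aHF-SC and 202 and 194 in HF-TAC, with 6 of the 9 dim in every group. Dermal fibroblast markers, 9 genes with none called, summed to 3457 and 3939 in qHF-SC, 1537 and 2406 in aHF-SC and 3874 and 6418 in HF-TAC, with 3 dim in every group. Tagln, Acta2 and Myl9 passed with any array left out, whereas calls ended for Vcl without qHF-SC replicate 1 (adjusted p = 0.0713), for Tpm2 and Vcl without qHF-SC replicate 2 (adjusted p from 0.0576 to 0.14), for Tpm2 and Vcl without aHF-SC replicate 1 (adjusted p from 0.121 to 0.221), for Flna, Tpm2 and Vcl without aHF-SC replicate 2 (adjusted p from 0.0931 to 0.139), for Vcl without HF-TAC replicate 1 (adjusted p = 0.0828) and for Vcl without HF-TAC replicate 2 (adjusted p = 0.0674). Without aHF-SC replicate 2 the list thus held 3 called peaks.

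Serum response factor, which drives many actin genes, binds the CArG box, and this motif was searched on both strands of the promoters that RefSeq lists (GRCm38.p6), each running from 250 bases before to 50 bases after a start. It lay in 2.63% of 457 promoters of called peaks, 2.02% of 247 promoters of called dips and 1.35% of 18109 promoters of all genes with one. Among the list's members it was found for Myl9, Vcl, Actg1 and Srf, of which Myl9 and Vcl are peaks. The promoters of Tagln, Actb, Actg2, Ccn2, Myh11 and Thbs1 were not searched here. The Myl9 promoter is shown because Myl9 has the larger step of the 2 peaks. It lies at chr2:156775214-156775513, plus strand, and the CArG box, 161 bases before the start, is in capitals.
Myl9: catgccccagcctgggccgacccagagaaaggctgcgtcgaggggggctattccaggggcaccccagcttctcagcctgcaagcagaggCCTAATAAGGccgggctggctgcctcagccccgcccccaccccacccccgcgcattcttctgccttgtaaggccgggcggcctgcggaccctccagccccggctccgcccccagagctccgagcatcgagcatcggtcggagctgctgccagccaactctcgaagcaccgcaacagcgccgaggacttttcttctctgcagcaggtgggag
These actin promoters were searched after the values had been seen, and a match describes the letters only.

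Basement membrane and integrin genes were another group of peaks. Of 19 basal adhesion genes tested, 5 were called peaks (26.3%, against 2.48% of all genes), none was a called dip, and the median contrast was 0.81. Col4a1 and Col4a2, the paired chains of the main basement membrane collagen, both rose. Col4a1 read 1030 and 608 in qHF-SC, 2673 and 2348 in aHF-SC and 199.9 and 379 in HF-TAC (contrast 2.42 ± 0.30, adjusted p = 0.00789). Col4a2 read 739.9 and 418 in qHF-SC, 1326 and 1720 in aHF-SC and 84.9 and 137 in HF-TAC (contrast 2.62 ± 0.29, adjusted p = 0.0057). Both chains were highest in aHF-SC and lowest in HF-TAC, with no overlap between groups. Itgb6, the β chain of an integrin that activates latent TGF-β, read 159 and 78.3 in qHF-SC, 247 and 234 in aHF-SC and 14.5 and 19.8 in HF-TAC, where it was dim. Against qHF-SC alone Itgb6 did not pass (adjusted p = 0.101 by limma). Itga3, the α chain of a laminin receptor, and Lama5, a laminin chain, had smaller steps of 2.02- and 1.85-fold with even replicates. Itga6, used for sorting, read 2812 and 2120 in qHF-SC and 2772 and 2277 in aHF-SC with a difference that did not pass (adjusted p = 0.954). Calls ended for Lama5 without aHF-SC replicate 1 (adjusted p = 0.058) and for Col4a1, Col4a2, Itgb6, Itga3 and Lama5 without aHF-SC replicate 2 (adjusted p from 0.0514 to 0.0841), which left the list no called peak in the latter case.

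Most bulge genes that passed the contrast were not peaks, since qHF-SC held them at a similar or higher level. Of 26 bulge genes 16 passed the contrast upward, as did 644 of all genes tested (3.54%). Only 4 were called peaks (15.4%, against 2.48% of all genes), because in the other 12 the aHF-SC arrays did not both lie above qHF-SC. Lgr5, for example, read 1468 and 1233 in qHF-SC and 1465 and 1341 in aHF-SC, which overlap, against 130.3 and 219.6 in HF-TAC. Among the 4 peaks, Sfrp1, a secreted Wnt antagonist, read 4490 and 3448 in qHF-SC, 6024 and 6800 in aHF-SC and 242 and 335 in HF-TAC. Its contrast of 2.60 ± 0.19 (adjusted p = 0.00214) came mainly from HF-TAC, since aHF-SC against qHF-SC alone had an adjusted p of 0.116. Npnt, the matrix protein nephronectin, had the same shape, with 1626 and 1170 in qHF-SC, 2386 and 3016 in aHF-SC and 208 and 135 in HF-TAC. Bmp6, a ligand that holds bulge cells at rest, differed from both neighbours, with 56.4 and 59.3 in qHF-SC, 186 and 268 in aHF-SC and 33.5 and 45.4 in HF-TAC (step 3.86-fold, adjusted p = 0.0035). Tcf7l1, a repressor of Wnt targets in stem cells, had a step of 2.12-fold (adjusted p = 0.0167) but did not pass against qHF-SC alone (adjusted p = 0.063 by limma). The list held 7 called peaks when qHF-SC replicate 1 or aHF-SC replicate 1 was left out.

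Of 17 hair germ and early activation genes, 2 were called peaks (11.8%, against 2.48% of all genes). Cdh3, the P-cadherin of the hair germ, read 342 and 207 in qHF-SC, 595 and 759 in aHF-SC and 337 and 448 in HF-TAC. Gas6, a ligand of TAM receptors, read 1148 and 983 in qHF-SC, 1315 and 1793 in aHF-SC and 405 and 299 in HF-TAC, so that its step from qHF-SC was 1.45-fold. Gas6 did not pass against qHF-SC alone, nor Cdh3 against HF-TAC alone (adjusted p = 0.24 and 0.0999 by limma). When its probe sets were averaged, Gas6 had an adjusted p of 0.0611. Bmp6, Npnt and Sfrp1 passed with any array left out, and calls ended for Tcf7l1 and Cdh3 without qHF-SC replicate 2 (adjusted p from 0.0576 to 0.0978), for Cdh3 without aHF-SC replicate 1 (adjusted p = 0.113), for Tcf7l1, Cdh3 and Gas6 without aHF-SC replicate 2 (adjusted p from 0.077 to 0.299) and for Cdh3 without HF-TAC replicate 1 (adjusted p = 0.0822).

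BMP and TGF-β genes were among both the peaks and the dips. Of 34 tested, 6 were called peaks (17.6%, against 2.48% of all genes) and 2 called dips (5.9%, against 1.38%). Beside Bmp6, the ligand Tgfb3 read 39.3 and 40.2 in qHF-SC, 86.9 and 61 in aHF-SC and 37.9 and 26.4 in HF-TAC (adjusted p = 0.0343). Ltbp3, which binds latent TGF-β in the matrix, and Fstl1, a secreted follistatin-like protein, had small steps over qHF-SC, 1.4- and 1.54-fold. Bmp1, a protease that trims procollagens and the BMP antagonist chordin, had a step of 2.14-fold (adjusted p = 0.0316), with an adjusted p of 0.0868 when its probe sets were averaged. Id4, one of the Id proteins that block helix-loop-helix factors, read 3174 and 1706 in qHF-SC, 4777 and 6647 in aHF-SC and 606 and 996 in HF-TAC (contrast 2.07 ± 0.31, adjusted p = 0.0134). Against qHF-SC alone Id4 did not pass (adjusted p = 0.0874 by limma).

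The ligands Bmp7 and Bmp4 were the dips. Bmp7 read 191 and 164 in qHF-SC, 94.3 and 98 in aHF-SC and 214 and 251 in HF-TAC and differed from both (contrast -1.07 ± 0.14, adjusted p = 0.00955). Its other probe sets had contrasts of -1.24 and -0.99 but did not hold the position of a dip. Bmp4 was dim in aHF-SC, at 20.1 and 20.1, but read only 23.5 and 31.8 in qHF-SC, and its contrast of -1.94 ± 0.33 came from HF-TAC, at 139.8 and 342. Both are also among the 26 matrix and hair lineage regulators (7.69%, against 1.38% of all genes). That list held no called peak and no other called dip, although 11 passed the contrast downward (2.17% of all genes did). Of the 8 genes, Bmp6 and Ltbp3 passed with any array left out, and calls ended for Tgfb3 and Fstl1 without qHF-SC replicate 1 (adjusted p from 0.0733 to 0.0868), for Tgfb3, Fstl1 and Bmp4 without qHF-SC replicate 2 (adjusted p from 0.0703 to 0.0986), for Bmp1, Tgfb3, Fstl1, Bmp7 and Bmp4 without aHF-SC replicate 1 (adjusted p from 0.0558 to 0.164), for Id4, Bmp1, Tgfb3, Fstl1, Bmp7 and Bmp4 without aHF-SC replicate 2 (adjusted p from 0.0706 to 0.217) and for Bmp1 without HF-TAC replicate 2 (adjusted p = 0.0563). The list held 3 called peaks without aHF-SC replicate 1, and 2 when replicate 2 was the one left out.

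In the Wnt list 2 of 34 genes were called peaks (5.88%, against 2.48% of all genes) and 2 were called dips (5.88%, against 1.38%). Rspo1, a secreted amplifier of Wnt signals, read 22.2 and 8.91 in qHF-SC, 82.1 and 72.4 in aHF-SC and 9.2 and 12 in HF-TAC, dim in both outer states by group mean (step 5.48-fold, adjusted p = 0.00845). The other peak was Sfrp1. Axin2, a feedback inhibitor and direct Wnt target, was a dip, with 167 and 193 in qHF-SC, 79.7 and 55.9 in aHF-SC and 179 and 215 in HF-TAC (contrast -1.49 ± 0.18, adjusted p = 0.00789). The outer states overlapped in Axin2, and their difference did not pass (adjusted p = 0.736). Wif1, a secreted Wnt inhibitor, read 132 and 96.8 in qHF-SC, 89.3 and 54.7 in aHF-SC and 335 and 374 in HF-TAC, so that aHF-SC replicate 1 lay just under qHF-SC replicate 2. Hedgehog and Notch genes held no called peak or dip among 24, against 2.48% and 1.38% of all genes. Shh, the hedgehog ligand of the matrix, was at 26.4 and 18.1 in qHF-SC and 23 and 39.8 in aHF-SC and at 736 and 906 in HF-TAC, and the hedgehog target Gli1 took the position of a dip without passing (adjusted p = 0.257).

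Of 29 FGF, EGF and IGF ligands and receptors 1 was a called peak (3.45%, against 2.48% of all genes) and 2 were called dips (6.9%, against 1.38%). Igfbp4, an insulin-like growth factor binding protein, read 3077 and 2548 in qHF-SC, 6536 and 6707 in aHF-SC and 1919 and 912 in HF-TAC (contrast 1.78 ± 0.28, adjusted p = 0.016). Its difference from qHF-SC alone did not pass (adjusted p = 0.0723 by limma). Ereg and Tgfa, both ligands of the EGF receptor, fell. Ereg was dim in aHF-SC, at 11.6 and 9.9, and low in the others, at 33.7 and 35.8 in qHF-SC and 39.2 and 17.5 in HF-TAC. Tgfa in aHF-SC (41.8 and 36.1) was close to qHF-SC (43.1 and 48.6), and when its probe sets were averaged its adjusted p was 0.357. Across these Wnt and growth factor genes, calls ended for Ereg and Tgfa without qHF-SC replicate 1 (adjusted p from 0.0717 to 0.0816), for Igfbp4, Ereg and Tgfa without qHF-SC replicate 2 (adjusted p from 0.0551 to 0.118), for Rspo1, Igfbp4, Ereg and Tgfa without aHF-SC replicate 1 (adjusted p from 0.0523 to 0.114), for Rspo1, Axin2, Wif1, Igfbp4, Ereg and Tgfa without aHF-SC replicate 2 (adjusted p from 0.0583 to 0.241) and for Tgfa without HF-TAC replicate 1 (adjusted p = 0.0658). The growth factor list held 4 called dips without HF-TAC replicate 2.

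**Figure D3:**
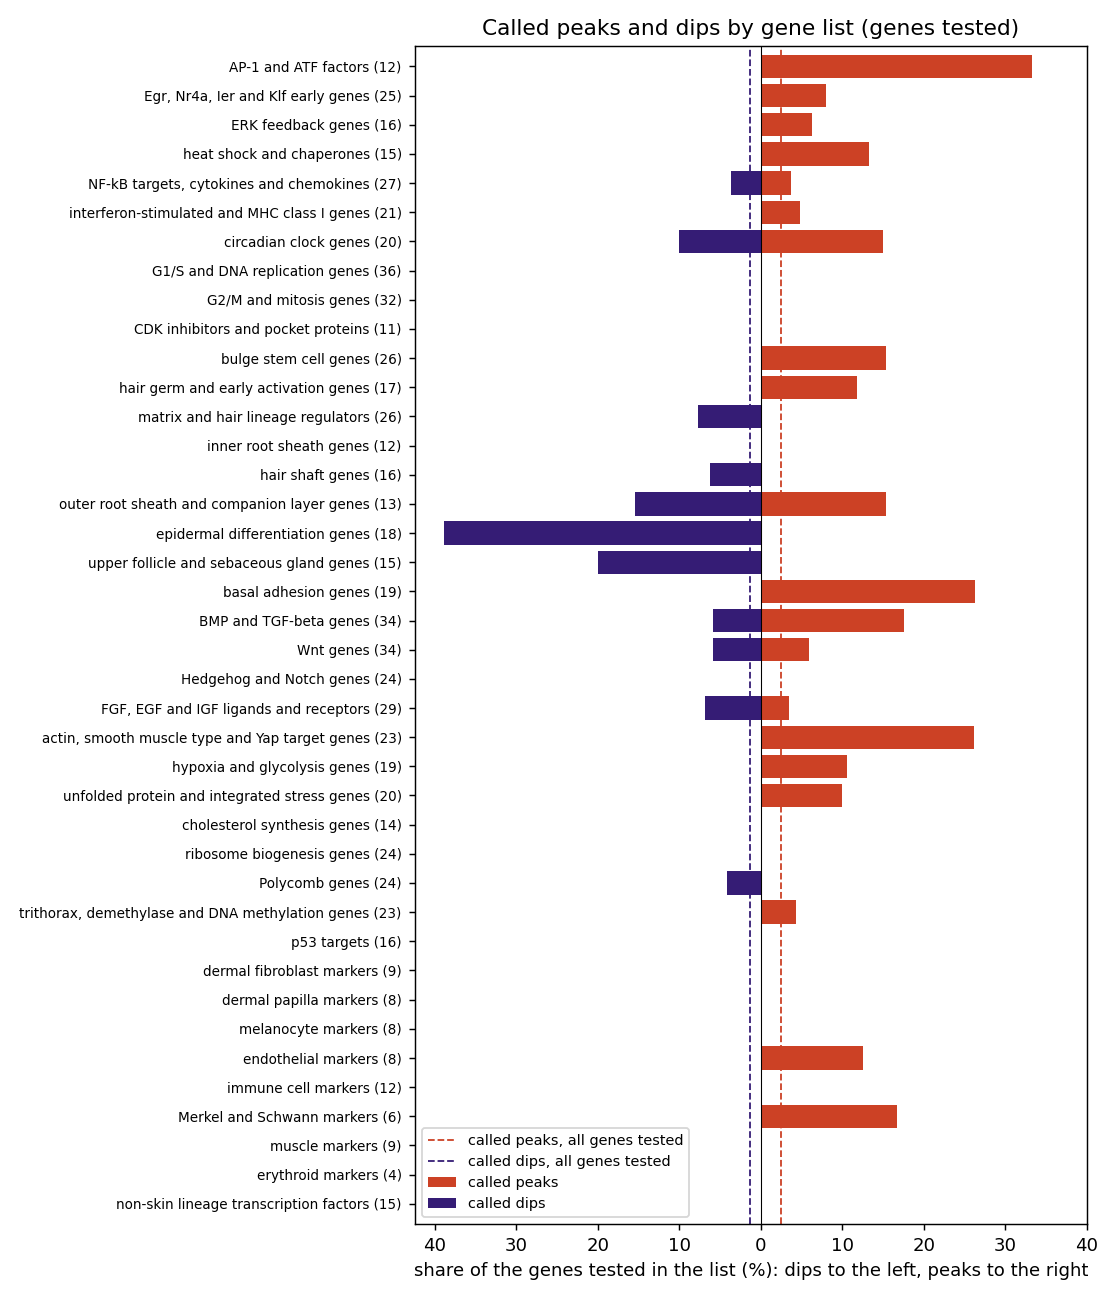
Share of each gene list that was a called peak (bars to the right) or a called dip (bars to the left), with the number of genes tested in brackets and dashed lines at the shares over all genes tested, 2.48% and 1.38%. AP-1 and ATF factors, basal adhesion genes and actin genes reach furthest to the right, and epidermal differentiation genes furthest to the left.

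Immediate early genes, which are transcribed within minutes of a growth factor or stress signal, were among the peaks, with smaller gaps to HF-TAC than to qHF-SC. Of 12 AP-1 and ATF factor genes, 4 were called peaks (33.3%, against 2.48% of all genes) with a median contrast over the list of 0.56. Atf3 read 767 and 767 in qHF-SC, 6248 and 9139 in aHF-SC and 5460 and 3084 in HF-TAC (contrast 2.09 ± 0.26, adjusted p = 0.00754). Its gap to qHF-SC was 3.30 on the log2 scale (adjusted p = 0.00316), and that to HF-TAC 0.88 (adjusted p = 0.0882). Fosb, a partner of Jun, read 271 and 172 in qHF-SC, 864 and 2013 in aHF-SC and 689.8 and 572 in HF-TAC. Jun, the core AP-1 subunit, read 1469 and 1318 in qHF-SC, 3740 and 8112 in aHF-SC and 3280 and 3102 in HF-TAC. Fos, its classic partner, read 11090 and 7319 in qHF-SC, 21950 and 24070 in aHF-SC and 15180 and 15740 in HF-TAC. In each of the 4, HF-TAC was itself above qHF-SC (adjusted p from 0.00112 to 0.0334), and none passed against HF-TAC alone. In Fosb and Jun the aHF-SC values were over 2-fold apart, with replicate 2 the higher, and the list held 1 called peak without qHF-SC replicate 2, 2 without HF-TAC replicate 2 and none without aHF-SC replicate 2.

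Among 25 other early genes, a list that includes Egr, Nr4a, Ier and Klf genes as well as Zfp36, 2 were called peaks (8%, against 2.48% of all genes). Egr1, a zinc finger factor, read 3850 and 2032 in qHF-SC, 10220 and 15130 in aHF-SC and 6629 and 7449 in HF-TAC. Zfp36, whose protein speeds the decay of cytokine mRNA, read 918 and 894 in qHF-SC, 4505 and 8917 in aHF-SC and 3873 and 2931 in HF-TAC (contrast 1.86 ± 0.27, adjusted p = 0.0126). Neither Egr1 nor Zfp36 passed against HF-TAC alone (adjusted p = 0.135 and 0.0945 by limma). Egr2 followed another order, with 286 and 110.0 in qHF-SC, 934 and 1011 in aHF-SC and 2943 and 1896 in HF-TAC, and Egr3 was likewise highest in HF-TAC. Dusp6, a phosphatase that turns off ERK, was the only called gene of 16 ERK feedback genes (6.25%, against 2.48% of all genes). It read 668 and 776 in qHF-SC, 2058 and 1498 in aHF-SC and 1440 and 1047 in HF-TAC. Dusp6 did not pass against HF-TAC alone either (adjusted p = 0.188 by limma). The calls of all 7 genes depended on single arrays and ended for Jun and Dusp6 without qHF-SC replicate 1 (adjusted p from 0.0845 to 0.121), for Fosb, Jun, Fos and Dusp6 without qHF-SC replicate 2 (adjusted p from 0.0527 to 0.113), for Fos, Egr1 and Dusp6 without aHF-SC replicate 1 (adjusted p from 0.0604 to 0.212), for Fosb, Atf3, Jun, Fos, Zfp36, Egr1 and Dusp6 without aHF-SC replicate 2 (adjusted p from 0.0529 to 0.198), for Jun, Fos and Egr1 without HF-TAC replicate 1 (adjusted p from 0.0503 to 0.0593) and for Fosb, Jun and Dusp6 without HF-TAC replicate 2 (adjusted p from 0.0504 to 0.0708).

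Of the 6 early gene peaks, RefSeq promoters were at hand for 5 (all but Egr1), and only that of Zfp36 held one of the motifs searched for early and clock genes, which were CRE (TGACGTCA), the AP-1 site (TGANTCA), the CArG box, the E-box (CACGTG) and the D-box (TTANGTAA), on both strands and with no overlap between the motifs found. The Zfp36 promoter is shown for that reason. It lies at chr7:28379179-28379478 on the minus strand of GRCm38.p6, and its CArG box, in capitals, is 58 bases before the start.
Zfp36: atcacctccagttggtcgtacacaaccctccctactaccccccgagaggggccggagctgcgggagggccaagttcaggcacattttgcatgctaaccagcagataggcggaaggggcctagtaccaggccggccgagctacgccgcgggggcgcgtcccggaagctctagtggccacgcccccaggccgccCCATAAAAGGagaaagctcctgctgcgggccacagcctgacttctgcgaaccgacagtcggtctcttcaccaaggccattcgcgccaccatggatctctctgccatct
Over all promoters of called peaks the AP-1 site lay in 6.56%, against 6.38% for all genes, and CRE in 0.875% against 2.49%.

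Several circadian clock genes had their highest or lowest level in aHF-SC, but none differed from both other groups in separate limma tests. The clock is a loop in which Arntl with Clock or Npas2 switches on the Per, Cry and Nr1d genes, whose products then repress it. Of 20 clock genes, 3 were called peaks (15%, against 2.48% of all genes) and 2 called dips (10%, against 1.38%). The contrast was passed downward by 7 of them and by 2.17% of all genes. Arntl read 74.8 and 52.6 in qHF-SC, 208 and 267 in aHF-SC and 151 and 142 in HF-TAC (contrast 1.29 ± 0.19, adjusted p = 0.0124). Without probe sets ending in x_at, s_at or a_at the contrast of Arntl was 0.12 (adjusted p = 0.809). The Arntl probe set left read at most 26.8, near the background. Npas2 read 57.3 and 56 in qHF-SC, 63.9 and 105 in aHF-SC and 12.9 and 14.1 in HF-TAC, so its peak lay mainly above HF-TAC, where it was dim, and its adjusted p was 0.0638 when its probe sets were averaged. Nfil3, a repressor of D-box genes, read 644 and 881 in qHF-SC, 1438 and 1497 in aHF-SC and 506 and 309 in HF-TAC (contrast 1.43 ± 0.23, adjusted p = 0.0167). Its difference from qHF-SC alone did not pass (adjusted p = 0.0835 by limma), nor did that of Npas2 (adjusted p = 0.268). Arntl did not pass against HF-TAC alone (adjusted p = 0.0746 by limma).

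The clock dips were Nr1d2 and Cry1, both repressors of the loop. Nr1d2 read 2416 and 2570 in qHF-SC, 230.4 and 146 in aHF-SC and 265 and 251 in HF-TAC, so that it fell 13.6-fold from qHF-SC while its difference from HF-TAC did not pass (adjusted p = 0.206). Cry1 read 232 and 212 in qHF-SC, 95.6 and 96.6 in aHF-SC and 109 and 156 in HF-TAC (contrast -0.82 ± 0.17, adjusted p = 0.0403). Against HF-TAC alone Cry1 did not pass (adjusted p = 0.204 by limma). Dbp, a D-box activator, was far below qHF-SC in both younger groups, at 84.5 and 61.1 in aHF-SC and 73.5 and 69.9 in HF-TAC against 1992 and 2578, and its aHF-SC values straddled those of HF-TAC, which made it neither a peak nor a dip. The labels give no time of day at collection, and its part in these values was not tested. Npas2 and Nr1d2 passed with any array left out, and calls ended for Cry1 without qHF-SC replicate 1 (adjusted p = 0.108), for Cry1 without qHF-SC replicate 2 (adjusted p = 0.102), for Nfil3 and Cry1 without aHF-SC replicate 1 (adjusted p from 0.0813 to 0.157) and for Nfil3, Arntl and Cry1 without aHF-SC replicate 2 (adjusted p from 0.1 to 0.205).

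The Cry1 promoter is shown because it was the only one of the called clock genes that held a searched motif, an E-box in capitals 60 bases before the start. It lies at chr10:85185005-85185304 on the minus strand of GRCm38.p6.
Cry1: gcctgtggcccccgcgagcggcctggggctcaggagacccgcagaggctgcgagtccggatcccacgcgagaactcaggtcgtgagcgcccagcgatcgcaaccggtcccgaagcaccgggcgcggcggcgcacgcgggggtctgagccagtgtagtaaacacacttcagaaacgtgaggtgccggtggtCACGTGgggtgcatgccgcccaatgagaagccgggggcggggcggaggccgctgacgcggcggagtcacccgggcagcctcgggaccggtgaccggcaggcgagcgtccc
The E-box lay in 7.44% of promoters of called peaks, 10.5% of those of called dips and 8.72% of all.

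**Figure D4:**
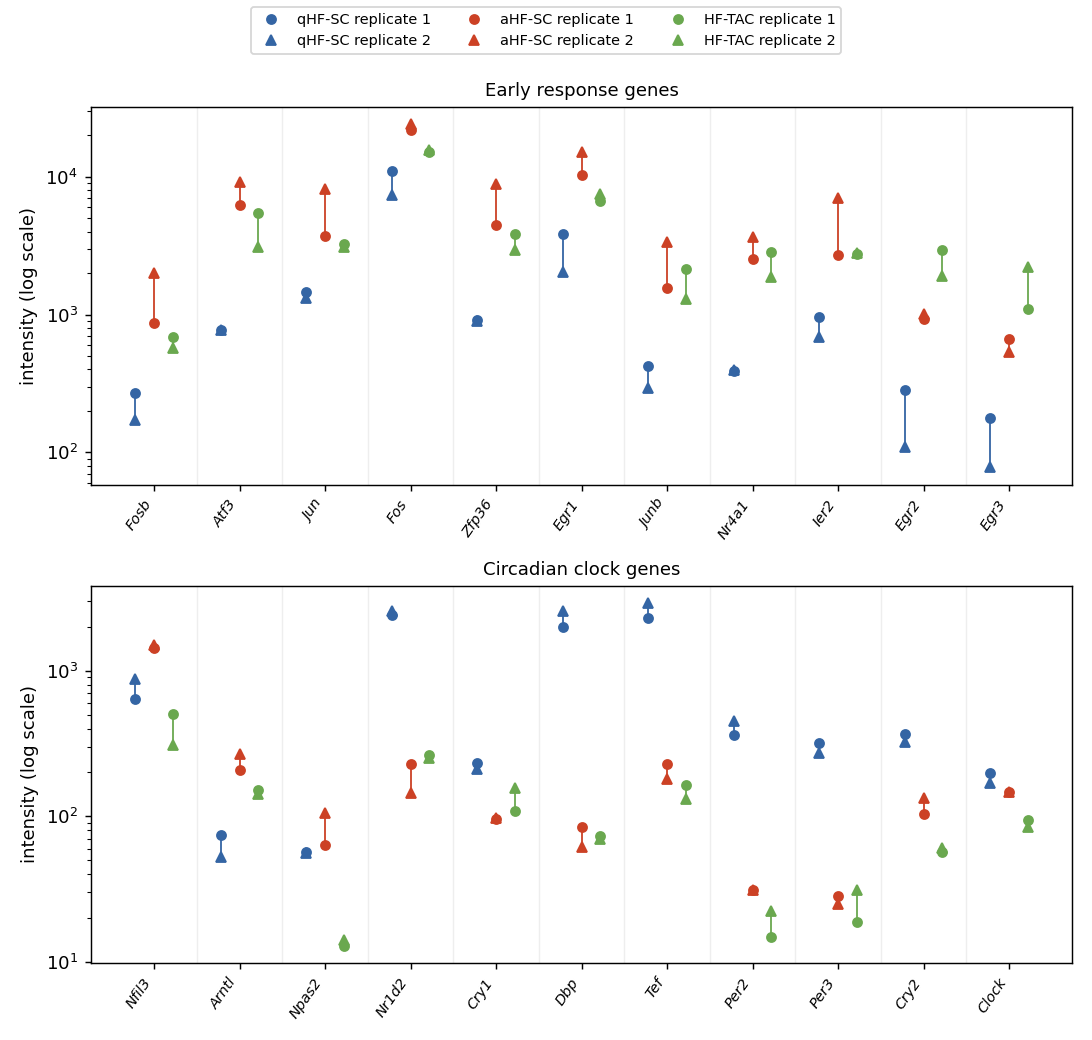
Intensity on a log axis in each of the 6 arrays for early response genes (top) and clock genes (bottom), with circles for replicate 1, triangles for replicate 2 and a line joining them. In the early genes qHF-SC is lowest throughout and aHF-SC lies above HF-TAC for the first 6 genes only, while in the clock genes qHF-SC and the younger groups are far apart in Nr1d2, Dbp, Tef, Per2 and Per3.

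Epidermal differentiation genes held the largest share of called dips among the 40 lists. Of 18 genes of the suprabasal and cornifying layers 7 were called dips (38.9%, against 1.38% of all genes), none was a called peak, 10 lay below all 4 other arrays, and the median contrast was -1.37. Krt10, the keratin of suprabasal cells, read 7666 and 6478 in qHF-SC, 3029 and 2481 in aHF-SC and 9769 and 6835 in HF-TAC (contrast -1.47 ± 0.19, adjusted p = 0.00913). Krtdap, a keratinocyte differentiation protein, read 5164 and 5927 in qHF-SC, 1761 and 1699 in aHF-SC and 10130 and 5238 in HF-TAC (contrast -1.88 ± 0.25, adjusted p = 0.0102). Both stayed above the dim level in aHF-SC, and the outer states overlapped. Spink5, an inhibitor of the skin's kallikrein proteases, read 159 and 125 in qHF-SC, 37.3 and 21.4 in aHF-SC and 233 and 84.6 in HF-TAC, a step of 4.97-fold. Dsc1, a desmosomal cadherin of upper layers, had a step of 3.33-fold (adjusted p = 0.0167), and Cnfn, cornifelin, was dim in aHF-SC. Against qHF-SC alone Dsc1 did not pass (adjusted p = 0.0855 by limma).

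In the other members the difference lay mainly against HF-TAC. Klk7, a kallikrein that sheds cornified cells, read 458 and 345 in qHF-SC, 332 and 226 in aHF-SC and 9567 and 4505 in HF-TAC. Ivl, the envelope protein involucrin, read 116 and 123 in qHF-SC, 86.8 and 80.5 in aHF-SC and 771 and 679.7 in HF-TAC (contrast -1.81 ± 0.13, adjusted p = 0.00214). The summed intensity of the list was 38130 and 39270 in qHF-SC, 21560 and 24460 in aHF-SC and 50970 and 32120 in HF-TAC, so aHF-SC was lowest and HF-TAC the most uneven. These are sums over genes with probe sets of their own scale, and the part of sorted epidermal cells in them was not tested. Without aHF-SC replicate 2 the list held 1 called dip. Ivl passed with any array left out, and calls ended for Spink5 and Cnfn without qHF-SC replicate 1 (adjusted p from 0.0531 to 0.0615), for Spink5 and Cnfn without qHF-SC replicate 2 (adjusted p from 0.0608 to 0.104), for Spink5, Krtdap and Cnfn without aHF-SC replicate 1 (adjusted p from 0.0544 to 0.0924) and for Spink5, Dsc1, Krtdap, Krt10, Cnfn and Klk7 without aHF-SC replicate 2 (adjusted p from 0.0706 to 0.228).

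Of 15 upper follicle and sebaceous gland genes 3 were called dips (20%, against 1.38% of all genes), and 7 passed the contrast downward (2.17% of all genes did). Scd1, the fatty acid desaturase of sebocytes and other lipid-making cells, read 1350 and 2297 in qHF-SC, 684 and 594 in aHF-SC and 2061 and 2189 in HF-TAC and differed from both. Ly6d, a surface protein of the upper follicle, read 694 and 859.6 in qHF-SC, 338 and 406 in aHF-SC and 8278 and 3720 in HF-TAC. Its difference from qHF-SC alone did not pass (adjusted p = 0.139 by limma). Gata6, a transcription factor of the upper follicle's ducts, was close to the background in aHF-SC (26 and 26.6) and qHF-SC (40.0 and 49) and read 552 and 233 in HF-TAC, and its adjusted p was 0.0642 when its probe sets were averaged. With qHF-SC replicate 1, aHF-SC replicate 1 or aHF-SC replicate 2 left out the list held 6, 5 or 0 called dips.

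The outer root sheath and companion layer list, 13 genes, held 2 called peaks and 2 called dips (15.4% each, against 2.48% and 1.38% of all genes). Barx2, a homeobox factor, read 212 and 155 in qHF-SC, 404 and 565 in aHF-SC and 216 and 138 in HF-TAC (adjusted p = 0.0197), and Krt19, a simple-type keratin found in bulge cells, read 12.6 and 16 in qHF-SC, 69.6 and 50.2 in aHF-SC and 22.4 and 35.9 in HF-TAC. Krt77 and the tight junction gene Cldn1 fell, with steps of 2.39- and 2.04-fold. Krt77 did not pass against qHF-SC alone (adjusted p = 0.117 by limma). Cldn1 did not pass without probe sets ending in x_at, s_at or a_at (adjusted p = 0.178). Selenbp1, a selenium-binding protein, was the only called gene of 16 hair shaft genes (6.25%, against 1.38% of all genes). It read 455 and 572 in qHF-SC, 157 and 237 in aHF-SC and 1912 and 3334 in HF-TAC. None of 12 inner root sheath genes was called, against 2.48% and 1.38% of all genes. Selenbp1 passed with any array left out, and calls in these 3 lists ended for Krt77 without qHF-SC replicate 1 (adjusted p = 0.099), for Barx2 and Krt77 without qHF-SC replicate 2 (adjusted p from 0.063 to 0.0842), for Gata6, Barx2, Krt19 and Krt77 without aHF-SC replicate 1 (adjusted p from 0.051 to 0.147) and for Scd1, Ly6d, Gata6, Barx2, Krt19, Krt77 and Cldn1 without aHF-SC replicate 2 (adjusted p from 0.0567 to 0.201).

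**Figure D5:**
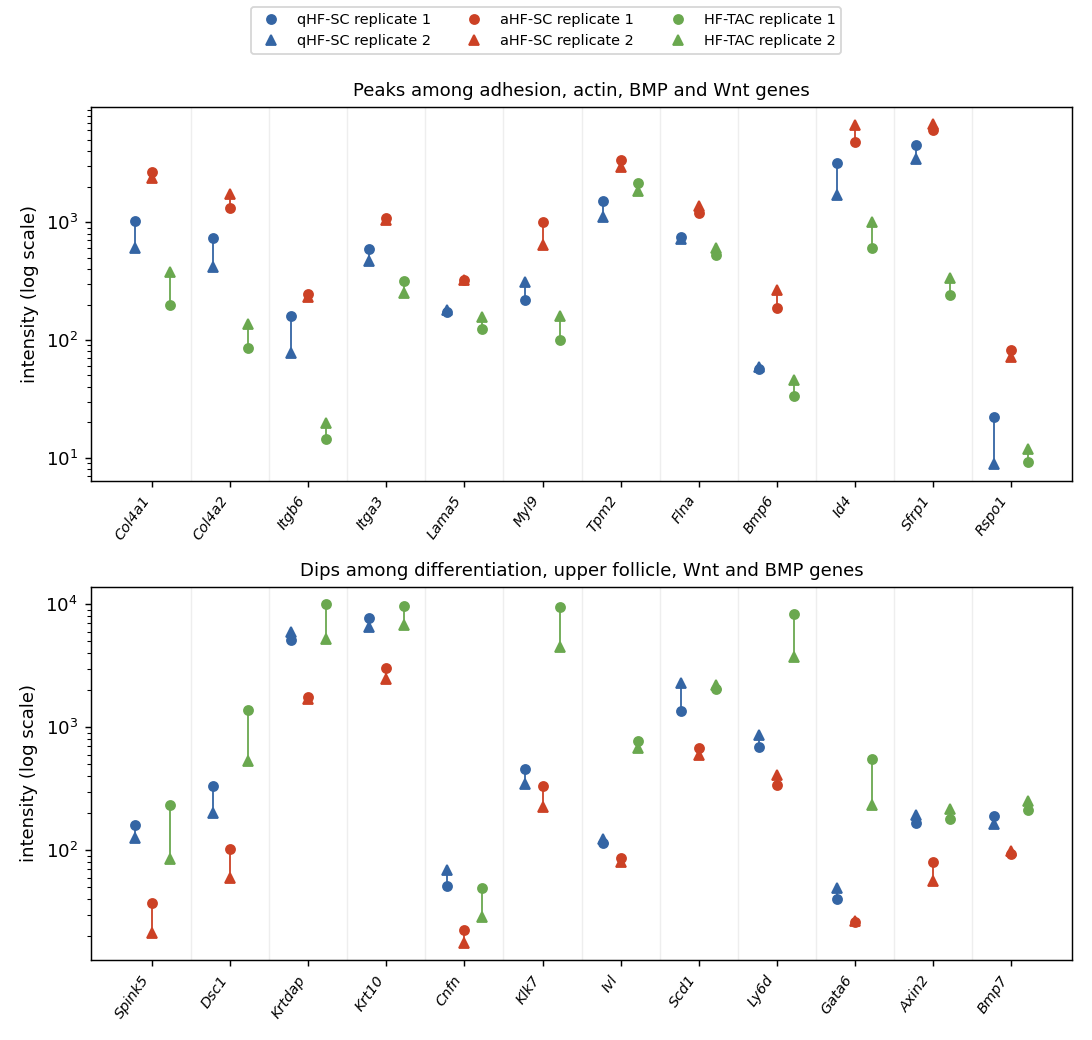
Intensity on a log axis in each of the 6 arrays for called peaks among adhesion, actin, BMP and Wnt genes (top) and called dips among differentiation, upper follicle, Wnt and BMP genes (bottom), with circles for replicate 1, triangles for replicate 2 and a line joining them. In the top panel HF-TAC is mostly the lowest group, and in the bottom panel Spink5, Krtdap, Krt10, Scd1, Axin2 and Bmp7 are near level in qHF-SC and HF-TAC with aHF-SC below both.

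The steepest dips outside these lists were of mixed function. Akr1c18, an aldo-keto reductase that inactivates progesterone, had the largest step, with 288 and 267 in qHF-SC, 39 and 45.8 in aHF-SC and 1139 and 417 in HF-TAC (6.57-fold, contrast -3.37 ± 0.36, adjusted p = 0.00521). Lmo7, a LIM-domain protein of adherens junctions, was even in every group, with 170.1 and 219 in qHF-SC, 34.4 and 38.7 in aHF-SC and 148 and 165 in HF-TAC (contrast -2.25 ± 0.16, adjusted p = 0.00214). Sh2d4a, an adaptor protein, read 86.5 and 104 in qHF-SC, 28.1 and 26.9 in aHF-SC and 109 and 104 in HF-TAC, and Gpnmb, a membrane glycoprotein, read 199 and 301 in qHF-SC, 70.8 and 58.6 in aHF-SC and 404 and 562 in HF-TAC. In Lmo7 and Sh2d4a the outer states were close to each other (adjusted p = 0.291 and 0.517).

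Agmo, which cleaves ether lipids, Elovl7, which lengthens fatty acids, and Far2, which makes fatty alcohols, had steps of 4.16-, 3.8- and 3.54-fold. Far2 was dim in aHF-SC, and its adjusted p was 0.102 when its probe sets were averaged. Mthfd1l, a mitochondrial enzyme of folate metabolism, read 273 and 367 in qHF-SC, 100.2 and 77.9 in aHF-SC and 261 and 374 in HF-TAC. Crct1, a gene of the epidermal differentiation cluster, Clca3a2 and 2310011E23Rik completed the group, with steps of 4.51-, 3.94- and 4.61-fold. Clca3a2 did not pass against qHF-SC alone, nor Far2 against HF-TAC alone (adjusted p = 0.0762 and 0.0525 by limma). Akr1c18, Lmo7, Gpnmb and Sh2d4a passed with any array left out, and calls ended for Crct1 without qHF-SC replicate 1 (adjusted p = 0.0865), for Crct1 and Clca3a2 without qHF-SC replicate 2 (adjusted p from 0.0605 to 0.113), for Crct1, Agmo, Clca3a2, Elovl7 and Far2 without aHF-SC replicate 1 (adjusted p from 0.0595 to 0.121), for 2310011E23Rik, Crct1, Clca3a2, Elovl7, Far2 and Mthfd1l without aHF-SC replicate 2 (adjusted p from 0.0601 to 0.247) and for Far2 without HF-TAC replicate 1 (adjusted p = 0.0587).

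Of 19 hypoxia and glycolysis genes 2 were called peaks (10.5%, against 2.48% of all genes). Car9, a carbonic anhydrase and target of the hypoxia factor, read 21.7 and 20.4 in qHF-SC, 66.6 and 55.7 in aHF-SC and 17.5 and 13.7 in HF-TAC (contrast 1.75 ± 0.16, adjusted p = 0.0035). Hif1a, that factor's own subunit, read 3183 and 2433 in qHF-SC, 5562 and 4080 in aHF-SC and 1579 and 1508 in HF-TAC. Against qHF-SC alone Hif1a did not pass (adjusted p = 0.0815 by limma). Of 20 unfolded protein and integrated stress genes 2 were called peaks (10%, against 2.48% of all genes). These were Ddit4, an inhibitor of mTORC1, with a step of 1.58-fold, and the chaperone Hspa5, with one of 1.19-fold. Hspa5 did not pass against HF-TAC alone (adjusted p = 0.518 by limma) and was not called when its probe sets were averaged. Of 15 heat shock genes 2 were called peaks (13.3%, against 2.48% of all genes). Dnajb1, a partner of Hsp70, read 3079 and 2217 in qHF-SC, 4755 and 6611 in aHF-SC and 3136 and 2498 in HF-TAC. Cryab, a small heat shock protein, had a step of 1.2-fold over qHF-SC, a difference that did not pass (adjusted p = 0.551 by limma). Without probe sets ending in x_at, s_at or a_at its contrast was -0.12 (adjusted p = 0.805), from a dim probe set that read at most 8.32. Another Cryab probe set, removed in that setting, lay above all 4 other arrays with a contrast of 0.99. Car9 passed with any array left out, and calls ended for Ddit4, Hspa5 and Dnajb1 without qHF-SC replicate 2 (adjusted p from 0.0827 to 0.0977), for Hif1a, Ddit4, Hspa5, Dnajb1 and Cryab without aHF-SC replicate 1 (adjusted p from 0.0603 to 0.173), for Ddit4, Hspa5, Dnajb1 and Cryab without aHF-SC replicate 2 (adjusted p from 0.103 to 0.228), for Hspa5 without HF-TAC replicate 1 (adjusted p = 0.0621) and for Hspa5 and Dnajb1 without HF-TAC replicate 2 (adjusted p from 0.0596 to 0.0868).

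Of 24 Polycomb genes 1 was a called dip (4.17%, against 1.38% of all genes), Pcgf5, which encodes a subunit of Polycomb repressive complex 1, at 136 and 123 in qHF-SC, 78.6 and 67.8 in aHF-SC and 179 and 150.4 in HF-TAC. Of 23 trithorax, demethylase and DNA methylation genes 1 was a called peak (4.35%, against 2.48% of all genes), the de novo methyltransferase Dnmt3a, at 241 and 138 in qHF-SC, 329.8 and 340.5 in aHF-SC and 102 and 88.2 in HF-TAC. Dnmt3a did not pass against qHF-SC alone (adjusted p = 0.104 by limma). Among 27 NF-κB targets, cytokines and chemokines, Cxcl14 rose (step 1.26-fold over qHF-SC) and Ccl20 fell (step 1.15-fold), both with their main difference against HF-TAC. Each was 3.7% of that list, against 2.48% and 1.38% of all genes. Irf7, an interferon regulatory factor, was the only called gene of 21 interferon and MHC class I genes (4.76%, against 2.48% of all genes). It read 39.3 and 24 in qHF-SC, 87.4 and 72.5 in aHF-SC and 36.6 and 37.8 in HF-TAC. Cxcl14 passed with any array left out, and calls ended for Ccl20 without qHF-SC replicate 1 (adjusted p = 0.112), for Ccl20 without qHF-SC replicate 2 (adjusted p = 0.135), for Dnmt3a, Irf7 and Ccl20 without aHF-SC replicate 1 (adjusted p from 0.0923 to 0.122), for Pcgf5, Dnmt3a, Irf7 and Ccl20 without aHF-SC replicate 2 (adjusted p from 0.0963 to 0.274) and for Ccl20 without HF-TAC replicate 1 (adjusted p = 0.0765).

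None of 36 G1/S and DNA replication genes and none of 32 G2/M and mitosis genes was a called peak or dip, against 2.48% and 1.38% of all genes, and in 25 and 30 of them all arrays stood in the order qHF-SC, aHF-SC, HF-TAC from low to high (8.38% of all genes did). Cdc25c, an activating phosphatase of mitotic CDK1, read 21.3 and 14.1 in qHF-SC, 58.8 and 35.3 in aHF-SC and 296 and 318 in HF-TAC. Of 24 ribosome biogenesis genes 14 had that same order. None of 11 CDK inhibitor and pocket protein genes, 16 p53 targets or 14 cholesterol synthesis genes was called either. Summed over the G2/M list, the intensity was 7432 in aHF-SC replicate 1 and 4062 in replicate 2, so the aHF-SC arrays were uneven over these genes.

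Markers of other cell types gave 2 called peaks. Krt8, a keratin of Merkel cells, read 141 and 75.3 in qHF-SC, 467 and 187 in aHF-SC and 49 and 41.7 in HF-TAC. It did not pass against qHF-SC alone (adjusted p = 0.103 by limma). Krt8 was the only one of 6 Merkel and Schwann markers called (16.7%, against 2.48% of all genes). The sum of that list was 319 and 216 in qHF-SC, 658 and 345 in aHF-SC and 247 and 216 in HF-TAC, with 2 dim in every group. Tek, an endothelial receptor, was dim in qHF-SC (8.28 and 7.81) and HF-TAC (9.49 and 7.72) and read 24.5 and 31.6 in aHF-SC (contrast 1.75 ± 0.16, adjusted p = 0.00351). The 8 endothelial markers summed to 186 and 179 in qHF-SC, 213 and 209 in aHF-SC and 186 and 204 in HF-TAC, and 4 of them were dim in every group. No marker of fibroblasts (9 genes), dermal papilla (8), melanocytes (8), immune cells (12) or erythroid cells (4) was called. In lists this short that is near the shares over all genes, 2.48% and 1.38%. Col6a1, a fibroblast marker, read 2910 and 3301 in qHF-SC, 1106 and 1630 in aHF-SC and 12.1 and 16.3 in HF-TAC. Mitf, a melanocyte marker, read 1581 and 1801 in qHF-SC, 175 and 175 in aHF-SC and 93.6 and 78.3 in HF-TAC. Both passed the contrast, Col6a1 upward and Mitf downward, with aHF-SC between the other groups. They are named as the members of their lists with the lowest p. Over the 8 melanocyte markers the median log2 difference of aHF-SC was 0.27 from qHF-SC and -0.60 from HF-TAC. In Mitf these were -3.27 and 1.03, opposite in sign. Over the 9 fibroblast markers the medians were -0.16 and 0.42, against -1.21 and 6.58 in Col6a1. The part of other cell types in the peaks and dips was not tested. Tek passed with any array left out, and the call of Krt8 ended, at an adjusted p of 0.0719, without qHF-SC replicate 2 and, at 0.0973, when aHF-SC replicate 1 was dropped.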

How the data were processed

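Intensities were deposited by the authors as linear values for 45101 probe sets on each of 6 Affymetrix arrays, 2 per group. The submitters' processing notes name RMA, with no version. The chip definition was not given in the sources used here. The 6 array medians lay between 22.8 and 24.0, and no column of values was left out. After 64 control probe sets were removed, 34945 probe sets had 1 gene symbol, 932 several and 9160 none. Each of 18193 genes was represented by its probe set with the highest mean, and 9010 genes had more than 1. Groups followed the labels. The deposited intensities were taken to log2 with no offset and fitted with limma 3.58.1 in R 4.3.3, tested on simulated data, with 3 residual and 4.25 prior degrees of freedom. The aHF-SC mean was tested against the average of the qHF-SC and HF-TAC means, and p-values were adjusted over all genes (Benjamini-Hochberg). The number of arrays limits the precision. Alternatives changed the scaling, probe set choice, offset, filter, model and arrays. Deviations from group means correlated at 0.06, -0.13 and 0.08 between same-numbered arrays, so replicate numbers were not taken as pairs.

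The members and the 40 gene lists were chosen with earlier results of these data known, and 41 list entries had no value of their own. Genes named are the 12 called peaks and 12 called dips with the largest step, up to 3 of each per list or its member with the lowest p, and a fixed set of sort and stem cell markers. Further called members of lists are named because the lists hold them, and Dbp, Egr2, Egr3 and the genes under other observations were chosen after their values were seen.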

Additional observations from a re-analysis of the deposited data

How the results depend on the processing

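Scaling (quantile, 75th percentile, median), array weights, a trended robust prior and a filter on dim genes kept the counts within 1.5 times the main ones. So did the mean of probe sets and removal of probe sets ending in x_at, s_at or a_at. Under these settings there were 378 to 510 called peaks, 198 to 286 called dips, 146 to 217 both-pair peaks and 51 to 77 both-pair dips. An offset of 16 before the log left 225 peaks, 103 dips, 76 both-pair peaks and 31 both-pair dips, and a limma test against a 2-fold change left 9, 4, 4 and 1. With 1 array left out at a time, called peaks ranged from 111 to 418, called dips from 44 to 326, both-pair peaks from 30 to 161 and both-pair dips from 5 to 122, the single array of a group being assumed to vary like the others. With the replicate number as a block the counts were 342, 176, 128 and 56, although the numbers do not pair the arrays. At an unadjusted p under 0.05, 1001 genes had the position of a peak and 788 that of a dip.

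Of 78 named called genes, 18 (12 peaks and 6 dips) passed with any array left out, and Tagln, B3galnt1, Lmo7 and Sfrp1 passed under all 17 settings. Values of named genes turned sign in 5 cases. Acta2 and Cryab did so without probe sets ending in x_at, s_at or a_at, at -0.15 and -0.12, where only dim probe sets were left. Mki67, which was not called, read -0.15 with the offset of 16 and ranged from -0.86 to 0.98 with 1 array left out, below 0 when qHF-SC replicate 2 (-0.33) or aHF-SC replicate 1 was dropped. The cause was not tested. Dim genes, among them 18 peaks with both other groups dim and 35 dips with aHF-SC dim, have fold changes limited by background signal.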

Other observations

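Further called genes, chosen after their values were seen, are given here as values. Edn2, the secreted peptide endothelin 2, had even replicates, with 52.5 and 55.5 in qHF-SC, 362 and 306 in aHF-SC and 35.7 and 25.3 in HF-TAC (contrast 3.05 ± 0.18, adjusted p = 0.00214 by limma). Other peaks were Fn1, fibronectin, at 103 and 89 in qHF-SC, 909 and 639.8 in aHF-SC and 168 and 332 in HF-TAC, Col16a1, a fibril-associated collagen, at 596 and 337 in qHF-SC, 1267 and 1593 in aHF-SC and 121 and 154 in HF-TAC, and Mfap2, a microfibril protein, at 157 and 69.8 in qHF-SC, 565 and 730.0 in aHF-SC and 85.4 and 82.9 in HF-TAC. Mcam, a cell adhesion molecule, read 110.3 and 49.4 in qHF-SC, 394 and 550.3 in aHF-SC and 61.4 and 69.3 in HF-TAC, and Fhl2, a LIM-domain cofactor, had a step of 3.66-fold. The TGF-β family ligands Gdf10 and Inhbb were peaks with qHF-SC replicates far apart, 1696 and 318 for Gdf10 and 1077 and 292 for Inhbb, against 1894 and 3636 and, for Inhbb, 1757 and 2397 in aHF-SC. Peaks too were Gclc, which makes the precursor of glutathione (step 3.22-fold), Gnmt, a methyltransferase of glycine (step 4.04-fold), and the cationic amino acid transporter Slc7a1 (step 4.13-fold). Edn2, Fn1, Col16a1 and Gclc passed with any array left out. Calls ended for Fhl2, Gdf10, Inhbb, Gnmt and Slc7a1 without aHF-SC replicate 1 (adjusted p from 0.0638 to 0.169), for Mcam, Mfap2, Fhl2, Gdf10, Inhbb, Gnmt and Slc7a1 without aHF-SC replicate 2 (adjusted p from 0.0556 to 0.279), for Slc7a1 without HF-TAC replicate 1 (adjusted p = 0.0605) and for Inhbb without HF-TAC replicate 2 (adjusted p = 0.0871).

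Among further dips, Odc1, the first enzyme of polyamine synthesis, read 1140 and 1836 in qHF-SC, 511 and 518 in aHF-SC and 2827 and 3093 in HF-TAC (contrast -2.01 ± 0.20, adjusted p = 0.00453 by limma). Klf5, a factor of proliferating epithelia, read 417 and 605 in qHF-SC, 176 and 194 in aHF-SC and 1301 and 1292 in HF-TAC (contrast -2.12 ± 0.17, adjusted p = 0.00321). The metallothioneins Mt1 and Mt2, which bind zinc, fell with a step of 2.49- and 2.88-fold, and their aHF-SC arrays were uneven, 6447 and 3121 for Mt1 and 4506 and 2338 for Mt2. Wee1, a kinase that holds back mitosis, read 472 and 686 in qHF-SC, 191 and 125 in aHF-SC and 330.0 and 443 in HF-TAC. Cck, the hormone cholecystokinin, met the rule for a dip only by small margins at the background, with 1639 and 1430 in qHF-SC, 11.8 and 11.2 in aHF-SC and 18.9 and 13.1 in HF-TAC, and its difference from HF-TAC did not pass (adjusted p = 0.196). Odc1, Klf5 and Cck passed with any array left out, and calls ended for Mt1 without qHF-SC replicate 1 (adjusted p = 0.0553), for Mt1 without qHF-SC replicate 2 (adjusted p = 0.115), for Mt1, Mt2 and Wee1 without aHF-SC replicate 2 (adjusted p from 0.102 to 0.196), for Mt1 without HF-TAC replicate 1 (adjusted p = 0.061) and for Mt1 without HF-TAC replicate 2 (adjusted p = 0.0738).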
